A study of Homo sapiens with 2 samples.

Results

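The MYC and MAX network genes are 10 protein-coding genes taken from RefSeq on GRCh38, out of 20033 protein-coding genes on the chromosomes. They are MYC, MYCL, MYCN, MAX, MXD1, MXD3, MXD4, MXI1, MNT and MGA. For each gene, every ETV4 peak that overlapped the gene span extended by 50 kb on both sides was collected, which gave 64 of the 54389 peaks of the series. No peak belonged to more than 1 of the genes. A peak was a gene-end peak when its interval lay within 1 kb of either end of that gene, and a distal peak otherwise. The data came from a ChIP-seq experiment in A549 cells, an established line from a human lung adenocarcinoma. These cells carried an shRNA against ETV4 (A549-shETV4) and received Flag-tagged ETV4 by transfection. There was 1 anti-Flag immunoprecipitate and 1 input library. The group is thus a line with a lentiviral shRNA that expresses a transfected, tagged factor. The antibody targets the tagged protein, not the endogenous one. The samples hold no anti-Flag library from cells without the tag and no IgG library. Peaks from antibody background therefore cannot be told apart from those of the tagged protein. Without a replicate, no SD and no test between conditions can be given. The intervals on fragment numbers and their ratios cover counting error alone. The Wilson and order-statistic intervals treat the chosen genes or peaks as if drawn at random. They are descriptions of these genes and peaks and not tests.

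MYC, MYCL and MYCN are transcription factors of the basic helix-loop-helix leucine zipper class that drive growth and proliferation. They bind the E-box CACGTG only as dimers with MAX, the shared partner of the network. The MXD proteins, MXI1, MNT and MGA also pair with MAX and occupy E-boxes, but they recruit repressor complexes and so act against MYC. ETV4 belongs to the PEA3 group of ETS factors, which recognise a GGAA core, and the study asked where it sits on the genome of non-small cell lung cancer cells.

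All 10 genes had a gene-end peak (Wilson 95% interval 72.2% to 100%), and in each of them a peak lay within 1 kb of the 5′ end. Among protein-coding genes as a whole, the share with a gene-end peak was 62.1%. The 14 gene-end peaks of the network had a median fold enrichment over the control of 16.8 (order-statistic 95% interval 5.69 to 21.7), against 15.5 for the gene-end peaks of all protein-coding genes. This median depended on which peaks count as gene-end peaks. It was 9.38 with summits in place of intervals, 8.85 with a window of 3 kb and 9.92 at the 5′ ends given by RefSeq. For all protein-coding genes the same settings gave 15.3, 13.1 and 16.4. The RefSeq setting left out MYC and its peaks, because the reference gives no start for this gene. The 50 distal peaks had a median of 9.08 (6.49 to 11.9), against 9.67 over all protein-coding genes. Gene-end peaks made up 21.9% of the network's peaks (Wilson 95% interval 13.5% to 33.4%), against 13.8% of all pairs of a protein-coding gene and a peak within 50 kb.

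Strong binding at a gene end was unevenly spread over the network. A gene-end peak with a fold over 5 was present at 9 of the 10 genes, against 57.5% of all protein-coding genes, and MGA was the exception. With a fold over 10 the number was 6, namely MYC, MYCL, MAX, MXD3, MXI1 and MNT, against 45.2% of all protein-coding genes. These shares of all genes include genes without any gene-end peak. Of the 12442 protein-coding genes with a gene-end peak, 11510 had one with a fold over 5 and 9059 one over 10. The strongest gene-end fold had a median of 16.8 over the 10 genes, against 17.6 over protein-coding genes with such a peak. A peak at both ends was present at MYC and MXD3, that is at 2 of the 10 genes, against 6.71% of all. At least 1 peak within 50 kb was found for 92.0% of all protein-coding genes, and a distal one for 88.5%, so that the presence of distal peaks at all 10 genes lay close to the background.

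**Figure D1:**
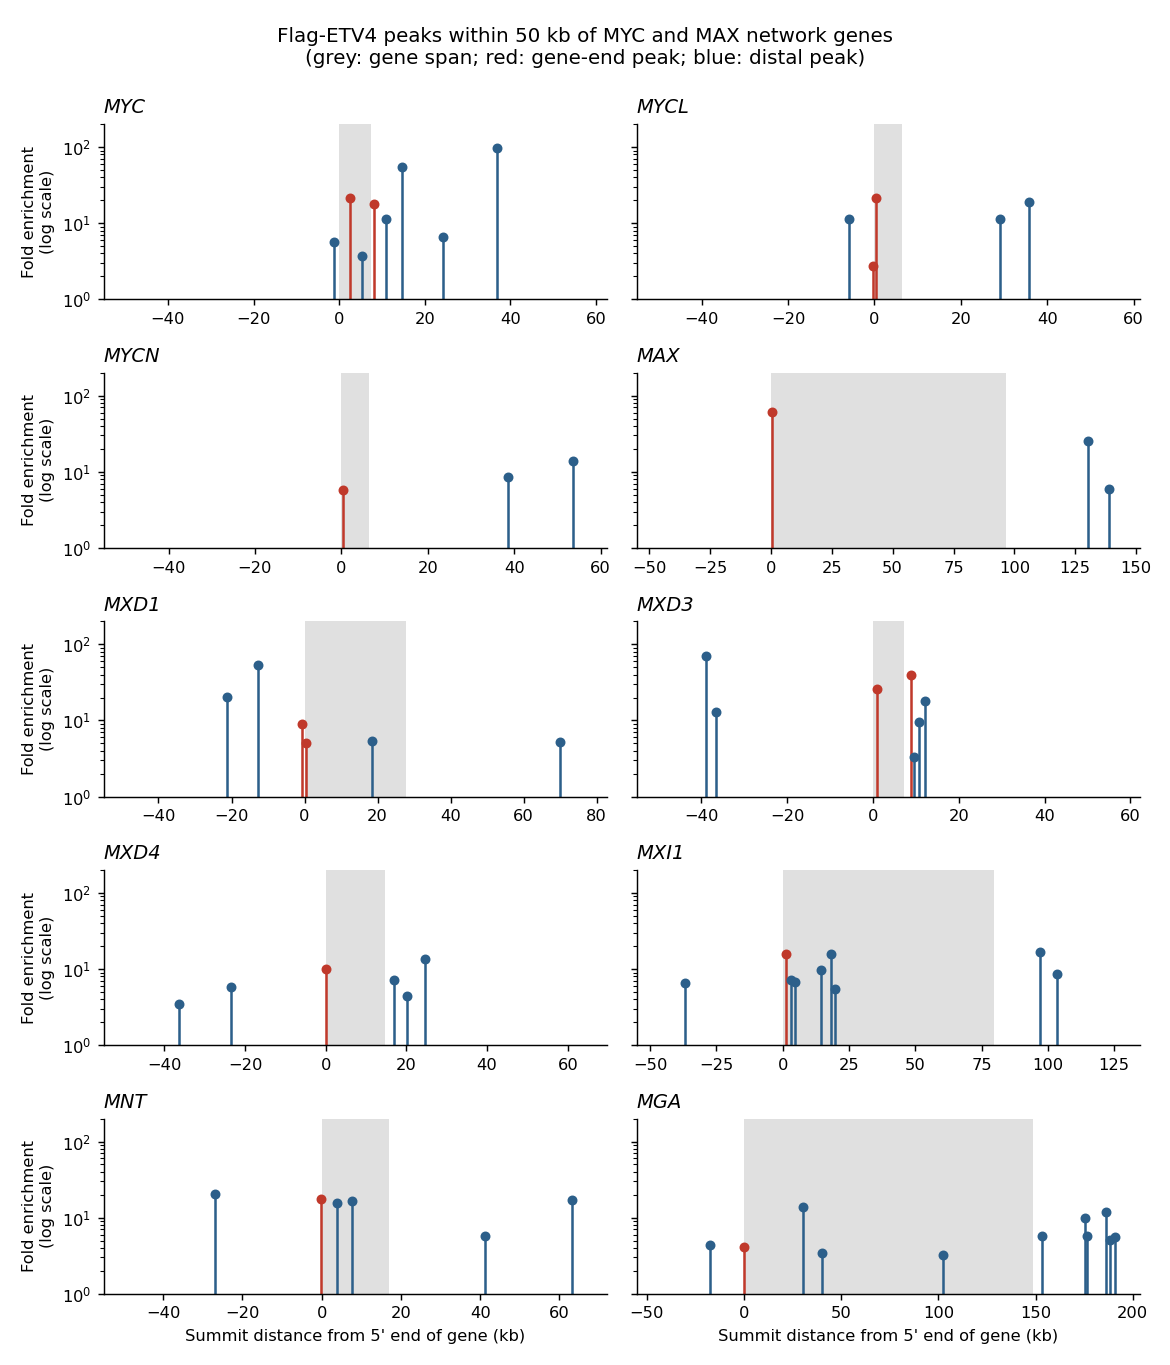
Fold enrichment (log axis) of the 64 ETV4 peaks against the distance of the summit from the 5′ end of each gene in kb, read in the direction of transcription. Grey bands are gene spans, red points gene-end peaks and blue points distal peaks. Every gene has a red point for a peak whose interval lies within 1 kb of its 5′ end. The summit itself is up to 2494 bp inside the gene, at MYC. The tallest blue point, with a fold of 97.5, lies downstream of MYC.

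MYC, on chromosome 8 from 127735434 to 127742951, had 8 peaks, or 7.44 per 100 kb of the extended locus, which was at the 86.7th percentile of protein-coding genes. The reference tables used here give no start for MYC, and its direction, towards PVT1, is textbook knowledge. A peak of 4487 bp, from 127734519 to 127739005, covered the 5′ end and part of the gene, and in width it ranked at the 99.9th percentile of the list. The enrichment over the control was 21.7-fold, with a −log10 q of 96.2. The list gives it 1 summit, 2494 bp inside the gene, with a pileup of 94 fragments (exact Poisson 95% interval 76.0 to 115). The pileup is the number of fragments over the summit, and the control level, here 3.38 fragments, is the number expected there from the input. A second gene-end peak, from 127743105 to 127743837, began 154 bp past the 3′ end and had a fold of 17.8. A weak peak with a fold of 5.70 lay 1156 bp upstream of MYC, just outside the 1 kb limit, with a summit 147 bp from an end of the lncRNA gene CASC11.

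The strongest peaks of the MYC locus were downstream of the gene. Between MYC and PVT1, a peak from 127749672 to 127750696 had a fold of 54.1 and 172 fragments, 7.24 kb beyond the 3′ end. Another, from 127771929 to 127772652, had a fold of 97.5, a −log10 q of 457 and a pileup of 260 fragments (229 to 294), 29.4 kb beyond the 3′ end and 22156 bp from PVT1. Its fold was the highest among the 64 and ranked at the 99th percentile of the whole list. Its pileup was 1.51 times that of the former peak (exact conditional 95% interval 1.24 to 1.84), whose own pileup was 1.83 times that over the 5′ end (1.41 to 2.38). Of the 8 peaks, 5 had their summit downstream of MYC and 1 upstream. The control level at the MYC peaks had a median of 2.67, against 2 at the peaks of the other 9 genes and 1.67 over all peaks. At a weak peak inside MYC, with a fold of 3.67, it reached 6.08, the 99.7th percentile. The part of the control level in the results at MYC was not tested.

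The paralogues MYCL and MYCN, which have narrower expression than MYC, differed from it at their 5′ ends. MYCL, on chromosome 1 from 39895428 to 39901917, carried a peak from 39901050 to 39901811 with a fold of 21.6, close to that at MYC, and a pileup of 50 fragments (37.1 to 65.9) over a control level of 1.37. Its summit was 445 bp inside the gene. Upstream of the same start, a peak of 238 bp had a fold of 2.70 and a pileup of 9 fragments, and was among the weakest of the whole list by fold, at the 0.0708th percentile. At MYCN, on chromosome 2 from 15940550 to 15947004, the 5′ peak was 260 bp wide, from 15940709 to 15940968, with a fold of 5.69, a −log10 q of 6.73 and a pileup of 12 fragments (6.20 to 21.0). Its control level of 1.28 was the lowest value in the list, which single peaks around MXD4, MXI1 and MNT had as well.

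Distal peaks at these paralogues were fewer than at MYC, and their highest folds were lower. MYCL had 3, with folds of 11.3, 11.4 and 18.9, the strongest 29.4 kb beyond its 3′ end. MYCN had 2, both downstream, with folds of 8.51 at 32.2 kb and 14.01 at 47.1 kb beyond the 3′ end. No coding gene other than MYCN had an end nearer to either of them. For MYCN, the density of 2.82 peaks per 100 kb was at the 48.6th percentile of all protein-coding genes.

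MAX, the common partner, had the strongest gene-end peak of the network. The gene lies on chromosome 14 from 65006101 to 65102695 and is transcribed towards lower coordinates. A peak of 1808 bp, from 65101457 to 65103264, spanned the 5′ end with a fold of 60.6, a −log10 q of 383 and a pileup of 262 fragments (231 to 296) over a control level of 3.34. By the highest fold at a gene end, MAX was at the 97.5th percentile of all protein-coding genes. RefSeq promoter windows give MAX 2 starts, 65102283 and 65101684, and the peak covered both, with its summit 81 bp inside the former and 518 bp upstream of the latter. Away from its 5′ end MAX was sparse in peaks. No other summit fell in its 96.6 kb span, and the density of 1.53 per 100 kb was at the 26.4th percentile. Its 2 distal peaks lay beyond the 3′ end, the stronger one, with a fold of 25.2, with a summit 7 bp from an end of RAB15.

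The window before the inner start of MAX was 1 of the 14 promoter windows of the network to hold the ETS core CCGGAAG, and the only one. Over all windows the share was 10.3%. Of the sequences with GGAA, only CCGGAAG and CAGGAAG were searched. The core is shown with the bases around it because MAX also had the strongest 5′ peak. The stretch lies at chr14:65101772-65101801 on the minus strand of GRCh38.p14, within the peak, and the capitals mark the core, whose first base is 106 bp upstream of the inner start and 415 bp from the summit.
MAX: caggtcggatcCCGGAAGgaggggcggcgc

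Among the MXD genes, which encode MAX partners that repress E-box genes, often as cells differentiate, the highest fold lay in a distal peak at MXD1, MXD3 and MXD4 alike. MXD1, on chromosome 2 from 69915109 to 69942945, had a pair of peaks on either side of its start. The upstream one, from 69914120 to 69914838, had a fold of 8.85 and 32 fragments, and the one inside the gene, from 69915153 to 69915872, a fold of 5.03 and a pileup of 21 fragments. The start itself lay in the gap between them. Upstream, a peak from 69901945 to 69903045 had a fold of 52.9 and a pileup of 177 fragments, 12.8 kb from the start of MXD1 and 2976 bp from an end of SNRNP27. The pileup at the MXD1 5′ peak was 0.181 times that at this distal peak (0.120 to 0.265), the lowest such ratio among the 10 genes.

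MXD3, on chromosome 5 from 177305499 to 177312752, lies in a cluster of short genes. Its 5′ end was covered by a peak of 1956 bp, from 177310914 to 177312869, with a fold of 25.8 and a pileup of 103 fragments (84.1 to 125), whose summit was 1050 bp inside the gene. The stronger gene-end peak, with a fold of 39.1, began 505 bp past the 3′ end, but its summit was 5 bp from an end of PRELID1. Of the 7 peaks around MXD3, 5 lay within 1 kb of an end of another protein-coding gene. The highest, from 177351172 to 177352085 with a fold of 70.8 and a pileup of 274 fragments, had its summit 27 bp from an end of LMAN2 and 38.9 kb upstream of MXD3.

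MXD4, on chromosome 4 from 2247432 to 2262109, had 1 gene-end peak, from 2261345 to 2262742, with a fold of 9.92 and a pileup of 29 fragments (19.4 to 41.6). Its summit was 164 bp inside the gene. The strongest of its 5 distal peaks had a fold of 13.7 and lay 9.95 kb beyond the 3′ end, with a control level of 4.05, at the 97.4th percentile. None of the peaks around MXD4 reached a fold of 20.

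MXI1, the remaining MXD-type gene, on chromosome 10 from 110207605 to 110287365, had peaks at alternative starts inside its span. RefSeq promoter windows give it 3 starts, and each had a peak within 1 kb. The outermost start was covered by a peak of 2094 bp with a fold of 15.9 and a pileup of 47 fragments (34.5 to 62.5), whose summit was 1212 bp inside the gene. The next start, at 110210231, lay in a peak with a fold of 7.27. The innermost start, at 110225996, lay in a peak from 110225542 to 110226368 with a fold of 15.9 and a pileup of 45 fragments, whose summit was 194 bp upstream of it. That last peak counts as distal because the rule uses the outer ends of the gene. Of the 9 peaks of MXI1, 6 had a summit inside the gene, and these 6 lay within 20 kb of its 5′ end.

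MNT, an MXD-like repressor that is broadly expressed, lies on chromosome 17 from 2384073 to 2401060 and stood out by the width of its peaks. The 5′ peak, from 2398803 to 2402409, was 3607 bp wide, at the 99.8th percentile, with a fold of 17.8 and a pileup of 83 fragments (66.1 to 103), and its summit was 114 bp upstream of the start. Inside the gene followed a peak of 1390 bp with a fold of 15.7 and one of 2107 bp with a fold of 16.5. A further peak of 2170 bp lay at SGSM2. Thus 3 of the 6 peaks of MNT were at least 2 kb wide. Over the network 5 of the 64 peaks reached this width (7.81%), the other two at MYC and MXI1, against 2.74% of all peaks.

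MGA, a large MAX partner that works in a Polycomb-type repressor complex, had the most peaks and the weakest 5′ end. The gene lies on chromosome 15 from 41621224 to 41769940. Its 5′ peak, from 41621074 to 41621444, had a fold of 4.14, a −log10 q of 4.02 and a pileup of 11 fragments (5.49 to 19.7), with a summit 78 bp inside the gene. The other two RefSeq starts, at 41660405 and 41660747, had the same peak within 1 kb, with a fold of 3.47 and 13 fragments. The strongest of the 11 peaks, with a fold of 13.8 and 36 fragments, was inside the gene, 30.3 kb from the 5′ end. Given its length of 149 kb, the density was 4.42 per 100 kb, near the network's median of 4.85.

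Ranked by the pileup of the strongest 5′ peak, the order was MAX, MXD3, MYC, MNT, MYCL, MXI1, MXD1, MXD4, MYCN and MGA. MAX stood apart from MXD3 by a ratio of 2.54 (exact conditional 95% interval 2.02 to 3.23). MXD3, MYC and MNT, in that order, did not differ beyond counting error, with ratios of 1.10 (0.820 to 1.46) for MXD3 over MYC and 1.13 (0.834 to 1.54) for MYC over MNT. In pileup, MNT exceeded MYCL by a ratio of 1.66 (1.15 to 2.41), over control levels of 3.71 and 1.37. By fold their order was the reverse, with 17.8 at MNT and 21.6 at MYCL. MXD4 likewise came before MXD1 by fold, at 9.92 against 8.85. From MYCL to MXD4 no neighbours differed beyond counting error, with ratios of 1.06 to 1.47 whose intervals all included 1. MXD4 exceeded MYCN 2.42 times (1.2 to 5.2), while MYCN and MGA differed by less than the counting error. The neighbours in this order were set by the values themselves, so the intervals describe and do not test it.

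**Figure D2:**
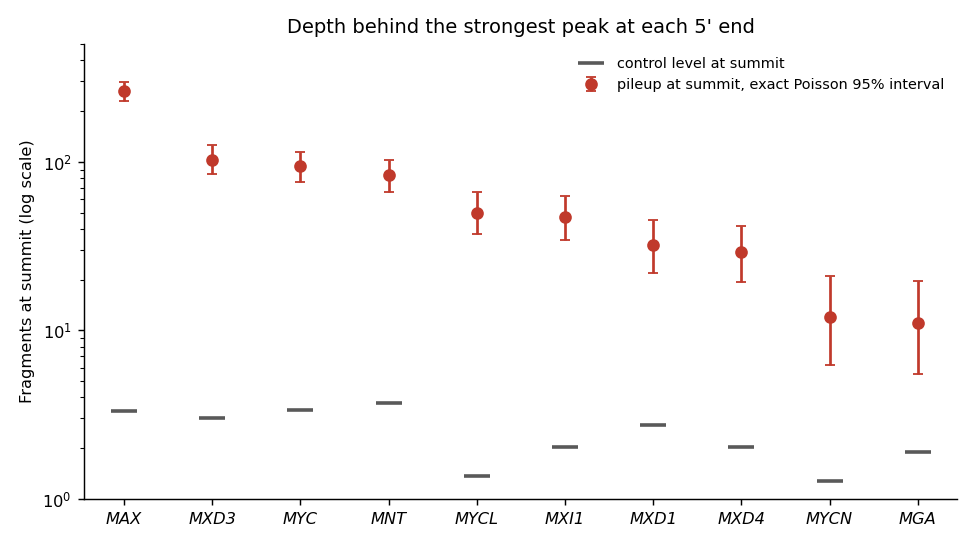
Fragments at the summit (log axis) of the strongest peak within 1 kb of the 5′ end of each of the 10 genes, with exact Poisson 95% intervals, and the control level at the same summit as a grey bar. The pileups fall from 262 fragments at MAX to 11 at MGA, while the control levels stay between 1.28 and 3.71.

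In 8 of the 10 genes the highest fold was in a distal peak, the exceptions being MAX and MYCL. This was near the background, since among the 11748 protein-coding genes with both kinds of peak the distal one was the stronger in 67.3%. At 7 of the 10 genes the highest distal fold was under 28.4, the median of the strongest distal fold over protein-coding genes with a distal peak, and at MYC, MXD1 and MXD3 it was above. Compared with the distal peak with the most fragments, a choice made after the values were seen, the 5′ peak had 0.181 times its pileup at MXD1, 0.306 times at MGA (0.140 to 0.614) and 0.362 times at MYC (0.282 to 0.459). At MAX the 5′ peak had 4.16 times the pileup of that distal peak (3.15 to 5.57). At MNT the ratio was 1.24 (0.887 to 1.74), within counting error. The distal peak with the highest fold at MNT, 20.6, had 48 fragments over a control level of 1.38. The 5′ peak of MNT had 83 fragments over a control level of 3.71. At MXI1 it was 0.959 (0.629 to 1.46), also within counting error.

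**Figure D3:**
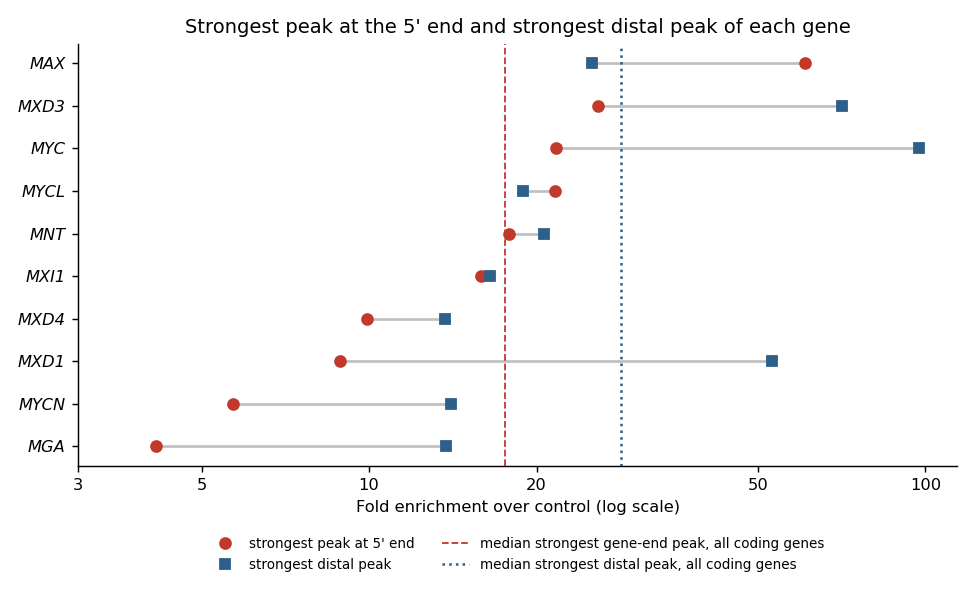
Fold enrichment over the control (log axis) of the strongest peak at the 5′ end (red circles) and of the strongest distal peak (blue squares) of each gene. Vertical lines are the medians of the strongest peak per gene over protein-coding genes that have one, 17.6 for gene-end peaks at either end (dashed) and 28.4 for distal peaks (dotted). MAX and MYCL are the genes whose circle lies to the right of the square.

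Part of the distal peaks sat at other genes. Of the 50 distal peaks, 11 lay within 1 kb of an end of another protein-coding gene, 4 of them around MXD3, and had a median fold of 16.5. The other 39 had a median fold of 8.51 and a range of 3.28 to 97.5, with the MYC peaks at both 54.1 and 97.5 and the upstream peak of MXD1 at 52.9 among them. By position, 27 distal peaks were downstream of their gene, 12 inside it and 11 upstream. The shares at other gene ends and by position were not determined for all protein-coding genes. These counts therefore describe the network's peaks without a background. A peak in the top 5% of the list by fold, which is a fold of 54.7 or more, was present around MYC, MAX and MXD3, that is around 3 of the 10 genes, against 19.2% of all protein-coding genes. These were 3 of the 64 peaks, or 4.69%. The density of peaks in the extended loci ranged from 1.53 per 100 kb at MAX to 7.44 at MYC, with a median of 4.85, against 2.89 over all protein-coding genes (quartiles 1.45 and 5.34).

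Promoter windows of 300 bases, from 250 bases before to 50 after a RefSeq start, were available for 9 of the 10 genes, not for MYC. All 9 had a peak within 1 kb of a start, against 69.2% of the 14738 protein-coding genes that have a window. Of the 14 windows of the network, 12 were overlapped by a peak, against 42.1% of all 35116 windows. The 14 windows were rich in G and C, with a median of 65.8% in their upstream 250 bases and a range of 55.6% to 78.0%. Over the whole reference the median was 67.2% in windows with a peak and 49.6% in windows without one.

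The motifs were searched on both strands of these windows and did not overlap each other in the network's windows. CCGGAAG was present in 19.2% of all windows with a peak and in 3.74% of those without, or 10.3% of all, and within the network only in the inner window of MAX. CAGGAAG, the other ETS core searched, was in 12.7% of windows with a peak and equally in 12.7% of those without. None of the 14 held it. The E-box CACGTG, to which the MAX dimers themselves bind, was in 7.26% of all windows and in those of MNT and MXD4. Its share was 9.5% in windows with a peak and 5.63% in those without. TGACTCA, the AP-1 site, was in 4.95% of all windows and in that of MXD3. Windows with a peak held it in 3.36% of cases and those without in 6.1%. With 14 windows these counts are a description of letters and not of bound sites.

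The upstream windows of MNT, MXD4 and MXD3 are shown because they hold the E-boxes and the AP-1 site and lie outside the span of any RefSeq gene. Each is 250 bases of GRCh38.p14 on the minus strand, at chr17:2401061-2401310, chr4:2262110-2262359 and chr5:177312753-177313002, and capitals mark the motif. The E-box of MNT began 193 bp upstream of the start and was 77 bp from the summit of the 5′ peak, whereas that of MXD4 began 238 bp upstream and was 400 bp from the nearest summit. The AP-1 site of MXD3, read on the opposite strand, began 79 bp upstream and was 1126 bp from the nearest summit.
MNT: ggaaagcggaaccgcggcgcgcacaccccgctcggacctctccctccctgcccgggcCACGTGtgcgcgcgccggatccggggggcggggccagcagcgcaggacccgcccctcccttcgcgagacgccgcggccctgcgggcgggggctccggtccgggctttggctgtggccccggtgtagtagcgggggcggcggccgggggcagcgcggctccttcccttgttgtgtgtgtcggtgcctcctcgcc
MXD4: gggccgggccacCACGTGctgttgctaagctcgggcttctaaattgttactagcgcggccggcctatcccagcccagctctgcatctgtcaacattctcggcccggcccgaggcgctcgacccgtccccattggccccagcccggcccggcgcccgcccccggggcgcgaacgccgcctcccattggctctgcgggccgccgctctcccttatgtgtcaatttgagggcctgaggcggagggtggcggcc
MXD3: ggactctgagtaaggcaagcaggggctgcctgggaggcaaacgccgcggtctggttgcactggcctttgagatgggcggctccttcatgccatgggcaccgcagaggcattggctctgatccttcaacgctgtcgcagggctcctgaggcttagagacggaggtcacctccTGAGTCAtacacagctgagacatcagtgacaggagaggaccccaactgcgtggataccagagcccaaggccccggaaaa

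A further 73 genes in 6 lists were partners, regulators or targets of the network, or other E-box factors. Of these, 68 had a gene-end peak (93.2%, Wilson 95% interval 84.9% to 97.0%), beside the 62.1% of all protein-coding genes. All 3 genes of the MLX branch, a parallel arm in which MLX takes the place of MAX, had one, with folds from 12.8 at MLXIP to 15.3 at MLX. All 15 MYC cofactors had one, from 5.52 at PAF1 to 86.3 at EP400, a chromatin remodeller of the TIP60 complex. All 13 genes of MYC turnover had one, with the highest fold, 52.1, at FBXW7, the ubiquitin ligase subunit that marks MYC for degradation. Among 16 subunits of the repressor complexes of MXD, MNT and MGA, 14 had one, from 7.01 at TFDP1 to 43.4 at PCGF6, and L3MBTL2 and SIN3B had none. Among 20 well-known MYC target genes 19 had one, from 2.97 at RCC1 to 41.1 at ODC1, and CAD had none. Of 7 other E-box factors, 5 had one, from 10.1 at TFE3 to 45.4 at TFAP4, and MITF and TFEC had none. Among the 73 genes, 55 had a gene-end peak with a fold over 10, beside 45.2% of all protein-coding genes. That share includes genes without a gene-end peak. Of the 12442 protein-coding genes with one, 9059 had a fold over 10. The strongest gene-end fold had a median of 17.4 over the 68 listed genes, against 17.6 over protein-coding genes with such a peak. WDR5 is in both the cofactor and the repressor list.

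**Figure D4:**
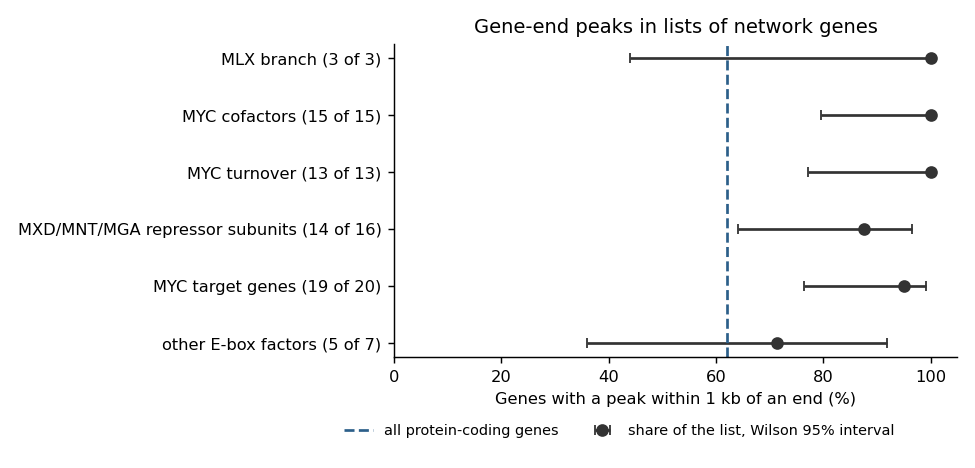
Share of genes (%) that have a gene-end peak, for each of the 6 lists, with Wilson 95% intervals, and the share over all protein-coding genes (62.1%) as a dashed line. Points of 3 lists are at 100%. The lists were chosen with earlier results of these data known, so the intervals describe them and are no test against the line.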

How the data were processed

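The data were 1 peak list of an anti-Flag immunoprecipitate, with 1 input library as its control. Per the labels, the submitters' processing notes name Bowtie2 2.4.1, SAMtools, MACS2 2.2.7.1 and deepTools 3.5.0 and the build hg38. Parameters and the handling of duplicate reads are not given in the sources used here. The labels and the methods name different Flag antibodies. The authors deposited, per peak, a ratio (fold enrichment of the immunoprecipitate over the input), the −log10 p and −log10 q at the summit, the summit position and a display score derived from q, which was not used. No −log10 q was under 1.30. The peaks were called on 1 library, so replicates could not be compared.

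Positions were made 1-based and compared with 59675 RefSeq genes. RefSeq starts came from 35116 promoter windows. The pileup and control level were solved from fold and −log10 p, with a pseudocount of 1, as the whole number of fragments whose Poisson tail was nearest to the deposited value. The largest difference was 0.00785 in −log10 p. The median pileup over all peaks was 26 fragments and the median control level 1.67, with a lowest value of 1.28. The total depth is unknown. The solution and the distances were tested on simulated data.

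The 10 genes and 6 lists were chosen with earlier results of these data known, and the lists were set from general knowledge. Named are the 10 genes, their strongest peaks, the genes with the nearest end, and per list the highest, the lowest and those without a peak, except that the lowest of the turnover list is not reported here. Other peaks of the 10 genes are given as well, and the width of 2 kb, the top 5% and the neighbours PVT1, CASC11, MYCL-AS1, MYCNOS and MYCNUT were chosen after values were seen. Percentiles are the share of all peaks, or of all protein-coding genes, at or below a value. Alternatives covered thresholds, windows, summits, flanks and nearest genes. The tools were scipy 1.17.1, pandas 2.3.3, numpy 2.4.6, matplotlib 3.10.9 and Python 3.11.15.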

Additional observations from a re-analysis of the deposited data

How the results depend on the processing

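Of 54 alternatives, 45 left their value within its interval or within 1.5 times. Requiring a fold over 10 left a gene-end peak at 6 genes in place of 10, and 30 peaks in place of 64. A −log10 q over 10 left 42 peaks and raised the median fold of the distal ones to 13.7. It left 8 of the genes with a gene-end peak, as did summits in place of intervals. For both settings the share of all protein-coding genes was not determined, and the 62.1% belongs to the main rule. A flank of 100 kb gave 110 peaks, of which 12.7% were at gene ends. Keeping only peaks whose nearest coding gene end was that of the gene itself gave 35 peaks, of which 37.1% were at gene ends. In the top 1% by fold, 0 genes had a peak, in place of 3 in the top 5%. The share of all protein-coding genes was not determined for the top 1%. The median fold of the gene-end peaks went down from 16.8 to 9.92 at the 5′ ends given by RefSeq, which lack MYC. It was 9.38 with summits and 8.85 with a window of 3 kb. Under the last pair it was below the median of the distal peaks, 9.77 and 9.79. The cause was not tested. No paired analysis was possible because there is 1 immunoprecipitate. The 5′ peaks with the fewest fragments, and so the widest relative counting intervals, were those of MYCN with 12 and MGA with 11.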

Other observations

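PVT1, the lncRNA gene downstream of MYC, had 29 peak summits inside its span of 307 kb, or 9.45 per 100 kb, with a median fold of 12.8. The highest, with a fold of 175 at the 99.9th percentile of all peaks, was 69.4 kb from MYC and so outside the 50 kb limit. PVT1 had 2 peaks within 1 kb of its ends, the stronger with a fold of 30.8. MYCNOS, which overlaps the 5′ end of MYCN, held 1 summit in 6.17 kb, that of the MYCN peak with a fold of 5.69, and 0 summits fell inside MYCL-AS1 (15.9 kb) and MYCNUT (15.6 kb), spans too short to compare densities.

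Between 50 and 100 kb from the gene, MAX and MXD3 each had 8 further peaks and MYC had 7, whereas MXD4 had 1. The strongest in this ring were those with a fold of 175 at MYC, 68.1 around MXD3 and 42.7 around MGA, the last 198 bp from an end of TYRO3.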
